A study of Mus musculus with 6 samples.

Results

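The genes described here are 33 that protect cells from oxidants: the transcription factor gene Nfe2l2 (its protein is NRF2), its inhibitor Keap1, and genes of the glutathione and thioredoxin systems, superoxide dismutases, catalase, peroxiredoxins, glutathione peroxidases and glutathione transferases, many of them NRF2 targets. They were chosen by name, with earlier results of these data known. All 33 symbols were found among the 24346 gene symbols of the deposited tables. mRNA was profiled in the retina of Unc119-/- mice (Unc119_KO, called knockout below, 3 libraries) and of Unc119+/+ mice (Unc119_WT, called wild type, 3 libraries). UNC119 is a photoreceptor protein that binds lipid-modified proteins, among them a transducin subunit, and the study's title ties its loss to a cone-rod dystrophy with inflammatory signalling. The labels name no treatment for either genotype, and age, sex, strain and the way the allele was made are not among the labels. Nothing says that the libraries came from separate animals, so the p-values describe spread among libraries, some of it possibly technical.

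Photoreceptors use much oxygen and hold lipids that oxidise easily, and the retina relies on several layers of defence. KEAP1 holds NRF2 for degradation, and when oxidants or electrophiles modify KEAP1, NRF2 enters the nucleus, pairs with small MAF proteins and switches on genes that carry an antioxidant response element. Superoxide dismutases turn superoxide into hydrogen peroxide, which catalase, the peroxiredoxins and the glutathione peroxidases remove. The peroxiredoxins and peroxidases are recharged by thioredoxin and glutathione, and the glutathione transferases attach glutathione to reactive molecules.

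The sequences shown first are the stretches that match the core of that element, since this letter pattern is what the NRF2 targets are known for. The pattern TGACNNNGC was searched on both strands in RefSeq windows (build GRCm38.p6) of 250 bases before to 50 bases after each start. Windows were found for 27 of the 33 genes, and 6 of the 27 (22.2%) held a match, against 14% of the 27025 genes with a window. Per window, 6 of the 35 windows of these genes held a match (17.1%), against 12.4% of all 32851 windows. The matches that lie before the start are printed 5′ to 3′ on the gene's strand, with the match in capitals. A match on the opposite strand appears as its reverse complement.
Gclm (chr3:122245397-122245457, plus strand): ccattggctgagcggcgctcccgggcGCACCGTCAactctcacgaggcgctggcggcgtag
Nfe2l2 (chr2:75704869-75704913, minus strand): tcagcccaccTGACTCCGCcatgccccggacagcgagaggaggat
Prdx1 (chr4:116685440-116685500, plus strand): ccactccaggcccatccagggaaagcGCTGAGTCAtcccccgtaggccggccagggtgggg
Sod1 (chr16:90220680-90220740, plus strand): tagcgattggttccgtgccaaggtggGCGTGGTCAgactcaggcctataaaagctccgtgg
Txnrd1 (chr10:82859088-82859148, plus strand): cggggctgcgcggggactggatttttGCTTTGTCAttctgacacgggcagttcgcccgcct
The match of Srxn1 lies 28 bases after its start and is not printed. That of Txnrd1 precedes a RefSeq start inside the gene's span (82833951 to 82897712), not the first base of that span. In Prdx1 the match overlaps the AP-1 site TGACTCA, read on the opposite strand, and no other match listed here does. A match of letters is a description and not a measured binding site. Sequence outside these windows was not searched, so a gene without a match here may carry the pattern farther from its start.

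The labels and the libraries were checked before the genes were compared. Unc119 measured 510.2, 459.9 and 448.5 FPKM in knockout replicates 1, 2 and 3, against 1191, 1187 and 1206 FPKM in wild-type replicates 1, 2 and 3. Its mean was 473 ± 32.8 FPKM in the knockout and 1195 ± 10.1 FPKM in wild type (SD, n = 3 each; FPKM are fragments scaled to transcript length and to the number mapped in the library), a log2 change of −1.34 with limma's adjusted p of 6.6e-05, so the knockout kept 39.6% of the wild-type level. The number of fragments behind a value is unknown, and relative depth read from the lowest values was 0.931 to 0.964 in the knockout and 0.763 to 1 in wild type. Rod markers were abundant in each library, as retina should have, with summed levels of 23580 to 24860 FPKM in the knockout and 22980 to 24880 FPKM in wild type over 8 genes. The 7 cone markers summed to 702 to 751 FPKM in the knockout and 758 to 817 FPKM in wild type, with no overlap, and 0 of them were called. Gene by gene, only Opn1sw was wholly lower in the knockout, and the others overlapped. Opn1mw had a log2 change above 0 (0.06), and Arr3 and Pde6c lay near 0 (−0.004 and −0.02). By Xist and the Y-linked genes, 1 knockout library (replicate 1) and 2 wild-type libraries (replicates 1 and 2) were male. Libraries also differed in their content of other eye tissue, and knockout replicate 3 stood apart the most. The summed level of 20 lens markers was 272, 655 and 11210 FPKM in knockout replicates 1, 2 and 3, against 145, 772 and 0.841 FPKM in wild-type replicates 1, 2 and 3, where 14 of the 20 were at 0 in wild-type replicate 3, the lens crystallin Cryaa among them. All 20 had a log2 change above 0 and 0 were called. Pigment epithelium markers (10 genes) summed to 25.3, 88.9 and 127 FPKM in knockout replicates 1, 2 and 3 and to 30.8, 52.2 and 56.9 FPKM in the wild-type libraries. In knockout replicate 3 the melanin genes of that list were high, with Dct at 34.7 and Pmel at 17.8 FPKM. Its visual cycle genes Rpe65 and Rgr were at 8.73 and 10.3 FPKM there, below the 14.1 and 15.7 FPKM of knockout replicate 2. The corneal keratin Krt12 was highest in knockout replicate 1, at 14.8 FPKM, and at most 5.42 FPKM in each other library. The 10 microglia markers summed to 60.5 to 68.4 FPKM in the knockout and 33.3 to 39.8 FPKM in wild type, with a log2 change above 0 for all 10. Of these, C1qc and Ctss were called higher, while Csf1r, P2ry12 and Tmem119 overlapped between genotypes (limma adjusted p = 0.795, 0.828 and 0.681). Müller glia markers (8 genes) summed to 1759, 1780 and 2100 FPKM in knockout replicates 1, 2 and 3 and to 1719 to 1835 FPKM in wild type, and 0 were called. Vim, Apoe and Aqp4 were wholly higher in the knockout, Glul and Kcnj10 wholly lower, and the others overlapped. In knockout replicate 3 Vim was 2.90 times its wild-type mean. The part of these cell types in the differences below was not tested. Results that rest on knockout replicate 3 are therefore given with and without it.

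No gene of the set passed the test between genotypes. All 33 had a mean of at least 0.5 FPKM and were tested with limma on log2(FPKM + 1), with Benjamini-Hochberg adjustment over the 14176 genes tested and a threshold of 0.05. Of the 33, 0 were called higher and 0 lower, where 0.205% of all genes tested were called higher and 0.0282% lower. The lowest adjusted p was 0.399, for Gpx4. At an unadjusted p under 0.05 there were 4 members higher (Gpx4, Prdx6, Sod3 and Txnrd1) and 0 lower, against 5.19% of all genes higher and 3.81% lower. The 3 knockout values lay above the 3 wild-type values for 7 members (Gpx4, Prdx6, Txnrd1, Sod1, Sod3, Slc7a11 and Gstm1) and below them for 0, where 7.83% of all genes tested were wholly higher and 8.04% wholly lower. In whole retina, more or fewer cells of a type and more or less RNA per cell cannot be told apart for any of these genes.

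The estimates, though small, lay mostly on the knockout side. The log2 change (knockout minus wild type) was above 0 for 28 members and below 0 for 5 (Gclc, Gpx7, Gstp1, Prdx3 and Txn1), and its median was 0.14, where 49.3% of all genes tested were above 0 with a median of −0.002. Among genes averaging at least 10 FPKM, 21 of 25 members were above 0, against 44.3% of 7529 genes. Library by library, the members' median log2 distance from the wild-type mean came to 0.09, 0.05 and 0.14 in knockout replicates 1, 2 and 3. In wild-type replicates 1, 2 and 3 it came to −0.009, −0.005 and −0.02. The wild-type libraries make up that mean, so their own distances lie near 0 by construction. They give no scale for the knockout distances. Knockout replicate 3 held the highest of the 6 values for 16 of the 33 members (48.5%), and for 21.1% of all genes tested. Without it the median was 0.08 with 24 of 33 above 0. Without wild-type replicate 3 the median was 0.085, and without wild-type replicate 1 it was 0.099. It was 0.121 to 0.148 with any other library left out. Adding the lens marker level to the model as a covariate (the lens term) gave a median of 0.04. That level was highest in knockout replicate 3 and lowest in wild-type replicate 3, so the term and genotype cannot be fully separated. The part of lens and other eye tissue in this median was not tested beyond these values.

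Leaving out knockout replicate 3 called no member either. In limma's fit of 2 knockout and 3 wild-type libraries 0.17% of 14090 genes were called higher and 0.0213% lower. At an unadjusted p under 0.05 there were 4 members higher (Gpx4, Hmox2, Sod3 and Srxn1) and 2 lower (Gpx7 and Gss), against 4.33% of all genes higher and 3.02% lower. The 95% interval of the log2 change in the full comparison lay within a change of 1.5-fold in either direction for 25 of the 33 members (75.8%) and for 86.9% of all genes tested. It reached a change of 2-fold for 3 members (9.09%), which were Gpx3, Gstm1 and Sod3, and for 3.58% of all genes tested.

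**Figure D1:**
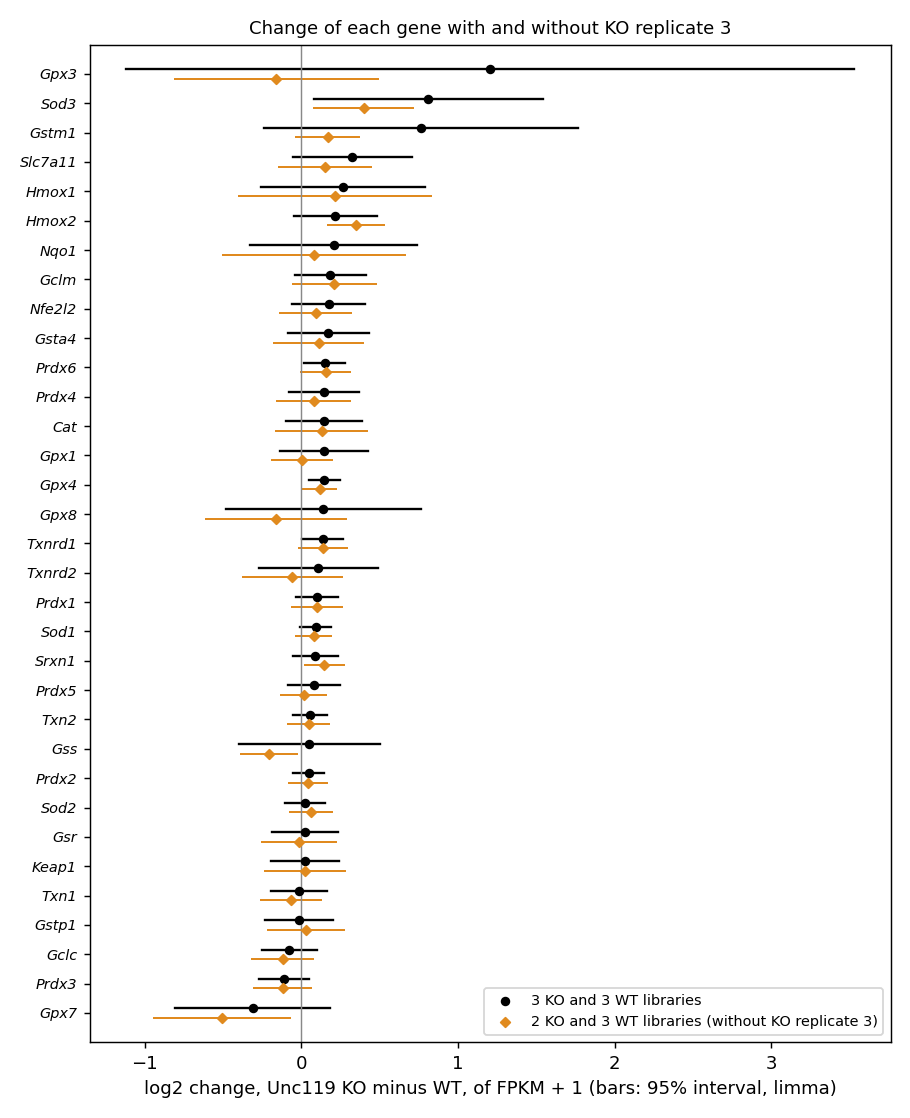
Log2 change of FPKM + 1 (knockout minus wild type) for each of the 33 genes, with 95% intervals from limma, for all 6 libraries (black) and without knockout replicate 3 (orange). Gpx3, Sod3 and Gstm1 lie farthest to the right in black, at 1.21, 0.81 and 0.76, and move to −0.16, 0.40 and 0.17 in orange.

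The levels of the 33 genes spanned a wide range. In wild type, 4 genes exceeded 100 FPKM: Gpx4 at 346 ± 1.99, Prdx2 at 226 ± 5.49, Sod1 at 202 ± 3.72 and Prdx5 at 112 ± 4.16 FPKM (SD, n = 3 each). The ranges of these 4 did not overlap each other, nor that of Txn2, the next gene, so their order holds in each wild-type library. By the mean over all 6 libraries, Gpx4 lay above 99.4% of the genes tested. A further 11 genes lay between 20 and 100 FPKM, 12 between 5 and 20 FPKM, and 6 under 5 FPKM. The wild-type ranges of Gpx1, Prdx3, Srxn1, Hmox2 and Txn1, all near 29 FPKM, overlapped from each to the next. The lowest were Gpx3, Sod3, Slc7a11, Nqo1, Hmox1 and Gpx7, where the precision is least and where adding 1 to the value before taking logs understates a change.

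**Figure D2:**
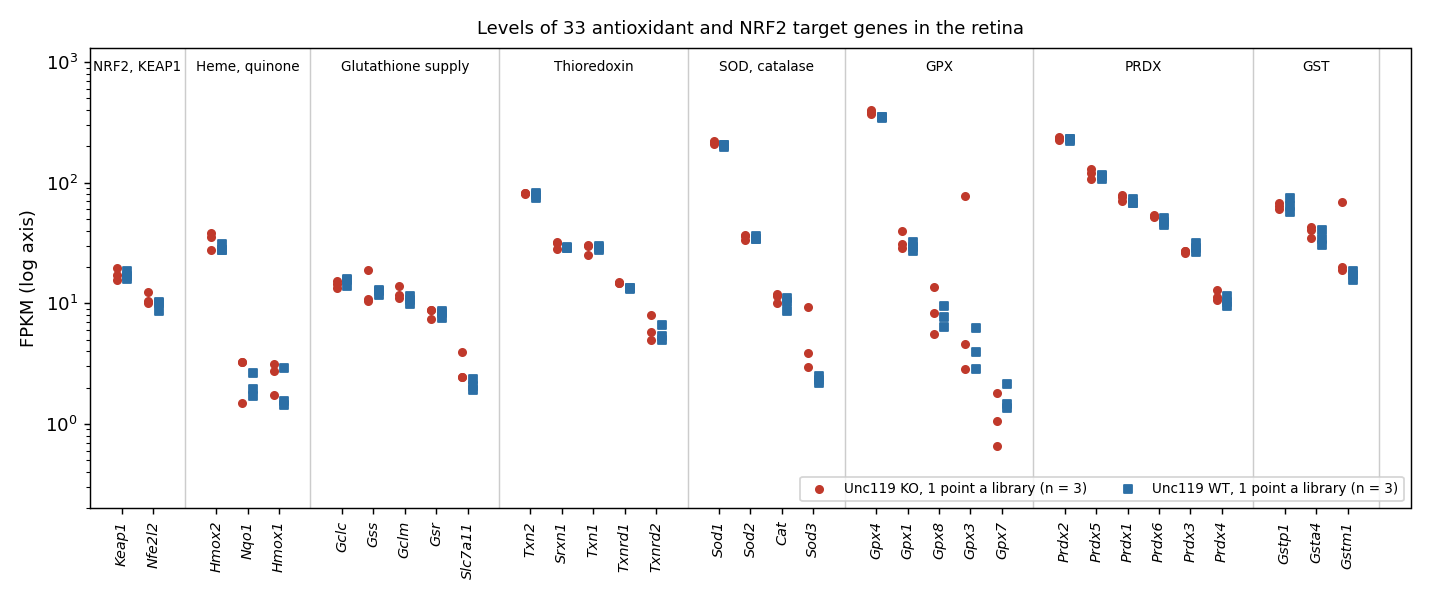
FPKM of the 33 genes on a log axis, 1 point for each library, with knockout (red circles) left of wild type (blue squares) and genes grouped by role. Gpx4, Prdx2, Sod1 and Prdx5 lie above 100 FPKM in each library, and the points of knockout replicate 3 stand far above the others for Gpx3 (77.9 FPKM) and Gstm1 (69.1 FPKM).

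The regulators came first in the order of the pathway. Nfe2l2 (ENSMUSG00000015839.6, chromosome 2, 75675513 to 75704641, minus strand), which encodes NRF2, measured 10.5, 10.1 and 12.5 FPKM in knockout replicates 1, 2 and 3, against 8.63, 10.05 and 10.3 FPKM in wild-type replicates 1, 2 and 3. The genotypes overlapped, with knockout replicate 3 highest and wild-type replicate 1 lowest. Its log2 change was 0.17 (95% interval −0.06 to 0.41, limma adjusted p = 0.640) and 0.09 without knockout replicate 3. Keap1 (ENSMUSG00000003308.15, chromosome 9, 21229730 to 21239361, minus strand), the adaptor that marks NRF2 for degradation, measured 19.4, 15.5 and 17.2 FPKM in the knockout and 18.6, 15.9 and 16.8 FPKM in wild type. The ranges nearly coincided, and the log2 change was 0.02 (95% interval −0.20 to 0.24, adjusted p = 0.963). NRF2 is controlled mostly as a protein, which mRNA levels do not measure.

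Of the genes for heme and quinone breakdown, the stress-inducible heme oxygenase Hmox1 was low in each library. It measured 1.74, 3.11 and 2.73 FPKM in the knockout, against 1.42, 1.54 and 2.93 FPKM in wild type, so the genotypes overlapped (log2 change 0.27, SE 0.23, limma adjusted p = 0.742). Nqo1, a quinone reductase and a classic NRF2 target, measured 1.48, 3.27 and 3.25 FPKM in the knockout and 2.66, 1.94 and 1.72 FPKM in wild type. Its log2 change was −0.40 among the male libraries and 0.65 among the female libraries, comparisons that have 1 library on 1 side and were not tested. Other members, Gss, Cat and Gpx3 among them, also changed sign in this split, so no difference between the sexes is drawn from it. Hmox2 (ENSMUSG00000004070.15, chromosome 16, 4726361 to 4766742, plus strand), the heme oxygenase made without induction, was the most abundant of the 3. It measured 35.3, 38.4 and 27.8 FPKM in knockout replicates 1, 2 and 3, against 27.5, 31.2 and 27.6 FPKM in wild type. Knockout replicates 1 and 2 lay above each wild-type library and knockout replicate 3 did not. The log2 change was 0.22 (SE 0.11, adjusted p = 0.614), and 0.35 (SE 0.08, adjusted p = 0.322) without knockout replicate 3, the lowest adjusted p of any member over all settings tried. Hmox2 shares 16395 bases of its locus with Cdip1 on the other strand, and whether reads were counted by strand is not stated in the sources used here. Cdip1 measured 40.4 ± 1.21 FPKM in the knockout and 39.3 ± 1.496 FPKM in wild type (SD, n = 3 each, adjusted p = 0.844).

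Of the 5 genes that supply and recycle glutathione, 4 had a log2 change above 0, and 2 did without knockout replicate 3. Slc7a11 (ENSMUSG00000027737.10, chromosome 3, 49892526 to 50443614, minus strand), the cystine importer that feeds glutathione synthesis, measured 2.43, 2.46 and 3.96 FPKM in knockout replicates 1, 2 and 3, against 2.08, 2.34 and 1.92 FPKM in wild type. Each knockout library lay above each wild-type library, knockout replicates 1 and 2 by little. The log2 change was 0.32 (SE 0.16, limma adjusted p = 0.607), 0.15 (SE 0.13, adjusted p = 0.837) without knockout replicate 3, and 0.08 with the lens term. Gclc, the catalytic subunit of the first synthesis step and the most abundant of the 5, measured 13.4, 14.4 and 15.3 FPKM in the knockout and 15.9, 14.01 and 15.7 FPKM in wild type, which overlap. Gclm, the regulatory subunit of that step, averaged 12.2 ± 1.52 FPKM in the knockout and 10.6 ± 0.764 FPKM in wild type (SD, n = 3 each, log2 change 0.19, adjusted p = 0.614). The second step is made by Gss, which measured 10.4, 10.8 and 18.7 FPKM in knockout replicates 1, 2 and 3 and 11.7, 12.8 and 12.6 FPKM in wild type. Knockout replicate 3 thus lay above and the other knockout libraries below the whole wild-type range, and its log2 change of 0.05 became −0.21 without that library (adjusted p = 0.624). Gss shares 22544 bases of its locus with Acss2 on the opposite strand. Gsr, which reduces oxidised glutathione, averaged 8.33 ± 0.791 FPKM in the knockout and 8.16 ± 0.511 FPKM in wild type (adjusted p = 0.954).

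In the thioredoxin system, the 1 gene of the 5 free of overlap was Txnrd1 (ENSMUSG00000020250.10, chromosome 10, 82833951 to 82897712, plus strand), the cytosolic thioredoxin reductase and a selenoprotein. It measured 14.9, 14.6 and 14.6 FPKM in the knockout, against 13.3, 13.2 and 13.4 FPKM in wild type. The genotypes did not overlap and the difference was small, the knockout mean being 110.5% of the wild-type mean. Its log2 change was 0.13 (SE 0.06, 95% interval 0.01 to 0.26, limma adjusted p = 0.536), and it stayed between 0.13 and 0.15 over all settings tried. Txn2, the mitochondrial thioredoxin and the most abundant of the 5, measured 80.9, 81.4 and 82.3 FPKM in the knockout and 79.4, 82.0 and 74.3 FPKM in wild type, with overlap. The cytosolic Txn1 averaged 28.5 ± 2.85 FPKM in the knockout and 28.7 ± 1.16 FPKM in wild type (SD, n = 3 each, log2 change −0.02, adjusted p = 0.967). Srxn1, which restores overoxidised peroxiredoxins, averaged 30.8 ± 2.22 and 28.8 ± 0.360 FPKM in knockout and wild type (log2 change 0.09, adjusted p = 0.694). Its knockout replicate 3, at 28.3 FPKM, was the lowest of all 6 libraries. Txnrd2, the mitochondrial reductase, averaged 6.23 ± 1.56 FPKM in the knockout and 5.65 ± 0.869 FPKM in wild type (adjusted p = 0.866).

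Among the superoxide dismutases, Sod1 and Sod3 were wholly higher in the knockout and Sod2 was not. Sod1 (ENSMUSG00000022982.10, chromosome 16, 90220754 to 90226329, plus strand), the cytosolic enzyme, measured 219.8, 207 and 219.1 FPKM in the knockout, against 204, 205 and 198 FPKM in wild type. The gap between the lowest knockout and the highest wild-type library was smaller than the spread within either genotype (log2 change 0.09, SE 0.04, limma adjusted p = 0.575). Of the 50-base words of Sod1 transcripts, 23.1% also occur in Gm8566, and its locus shares 650 bases with Scaf4 on the opposite strand. Sod3 (ENSMUSG00000072941.5, chromosome 5, 52363791 to 52371418, plus strand), the secreted enzyme, measured 2.96, 3.84 and 9.32 FPKM in knockout replicates 1, 2 and 3, against 2.30, 2.498 and 2.18 FPKM in wild type. Its knockout mean was 231% of the wild-type mean, and knockout replicate 3 alone was 4.005 times that mean. The log2 change was 0.81 (SE 0.32, adjusted p = 0.519), and 0.40 (SE 0.13, adjusted p = 0.596) without knockout replicate 3. With the lens term it was 0.30, the lowest over the settings tried. Sod2, the mitochondrial enzyme, averaged 35.3 ± 1.63 FPKM in the knockout and 34.7 ± 1.27 FPKM in wild type (SD, n = 3 each, adjusted p = 0.912). Cat, the peroxisomal catalase, averaged 11.1 ± 1.04 and 9.98 ± 1.23 FPKM in knockout and wild type (log2 change 0.14, adjusted p = 0.701).

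**Figure D3:**
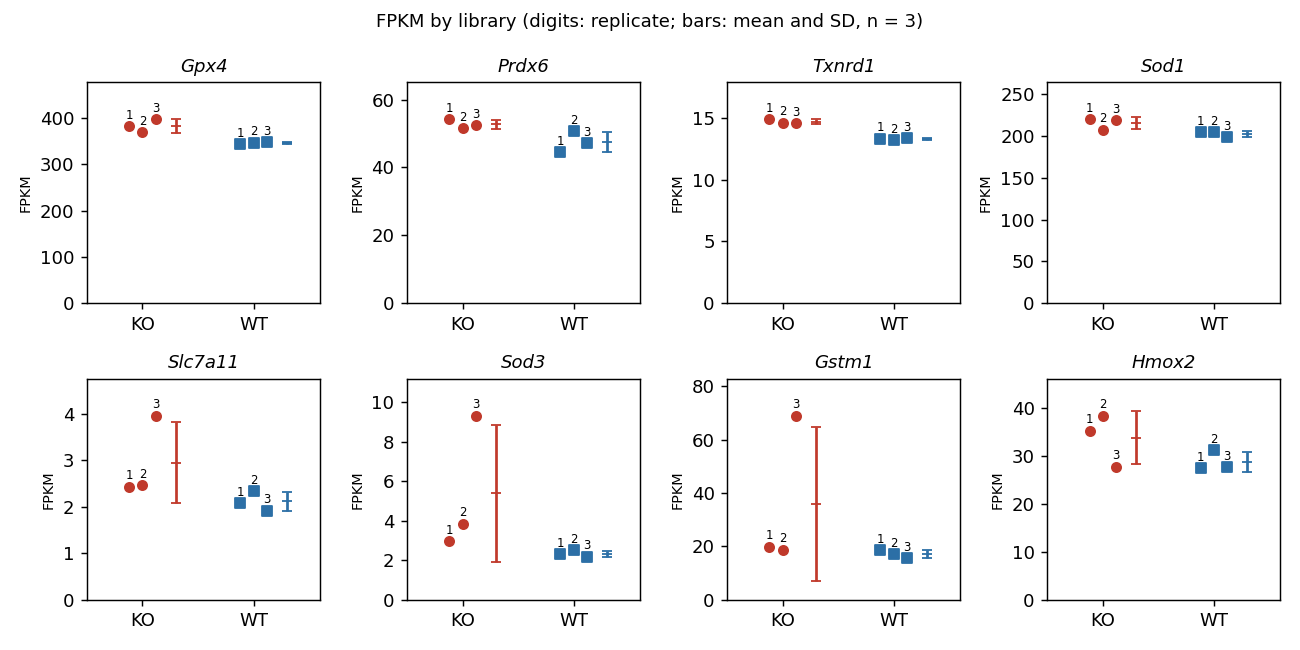
FPKM in each library of the 7 genes whose genotypes did not overlap, and of Hmox2, with knockout (red) left of wild type (blue), replicate numbers beside the points, and mean with SD (n = 3) at the side. Gpx4, Prdx6, Txnrd1 and Sod1 are narrowly higher in each knockout library, while in Slc7a11, Sod3 and Gstm1 knockout replicate 3 lies far above the other libraries.

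The glutathione peroxidases held both the most abundant gene of the set and the most uneven one. Gpx4 (ENSMUSG00000075706.10, chromosome 10, 80047166 to 80056439, plus strand), the selenoprotein that reduces lipid peroxides in membranes and restrains ferroptosis, measured 382, 369 and 398 FPKM in the knockout, against 344, 347 and 348 FPKM in wild type. Each knockout library lay above each wild-type library, the nearest by a margin larger than the whole wild-type range. The knockout mean was 110.6% of the wild-type mean, with a log2 change of 0.14 (SE 0.04, 95% interval 0.05 to 0.24, limma adjusted p = 0.399) and of 0.12 (adjusted p = 0.626) without knockout replicate 3. It was 0.14 among the male libraries and 0.14 among the female libraries, comparisons that have 1 library on 1 side and were not tested. With the lens term it was 0.12. Quantile normalization lowered it to 0.08. The value of Gpx4 is uncertain in 1 respect, since 51.4% of the 50-base words of its transcripts also occur in the processed pseudogene Gpx4-ps2, and the handling of reads with several matches is not stated.

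Gpx3 (ENSMUSG00000018339.11, chromosome 11, 54902453 to 54910377, plus strand), the secreted peroxidase found in plasma, measured 2.83, 4.57 and 77.9 FPKM in knockout replicates 1, 2 and 3, against 3.97, 6.25 and 2.82 FPKM in wild-type replicates 1, 2 and 3. Knockout replicate 3 was 17.9 times the wild-type mean, while the other knockout libraries lay within the wild-type range. On the log2 scale the change was 1.21 with an SE of 1.004 (limma adjusted p = 0.737), −0.16 without knockout replicate 3, and −0.57 with the lens term. Wild-type replicate 2, which had the most lens RNA among the wild-type libraries, also had the most Gpx3 among them. Knockout replicate 1 had more lens RNA than wild-type replicate 1 (summed markers 272 and 145 FPKM) but less Gpx3 (2.83 and 3.97 FPKM). The part of lens, pigment epithelium or other tissue in the values of knockout replicate 3 was not tested.

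The other peroxidases overlapped between genotypes. Gpx1, the main cytosolic enzyme, measured 30.9, 28.5 and 40.0 FPKM in the knockout and 27.2, 29.5 and 32.2 FPKM in wild type, and its log2 change of 0.14 (limma adjusted p = 0.740) was 0.004 without knockout replicate 3. Gpx7 and Gpx8 are enzymes of the endoplasmic reticulum. Gpx7 averaged 1.17 ± 0.572 FPKM in the knockout and 1.65 ± 0.429 FPKM in wild type (SD, n = 3 each, log2 change −0.31, adjusted p = 0.692), the lowest log2 change of the 33. Gpx8 averaged 9.19 ± 4.10 and 7.85 ± 1.56 FPKM in knockout and wild type (adjusted p = 0.898), with knockout replicate 3 highest at 13.6 FPKM. As a share of the summed FPKM of the 5 peroxidases, Gpx4 made up 89.9%, 90.4% and 74.9% in knockout replicates 1, 2 and 3 and 88.2% to 89.8% in wild type. Gpx3 made up 14.7% in knockout replicate 3 and at most 1.59% in each other library.

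**Figure D4:**
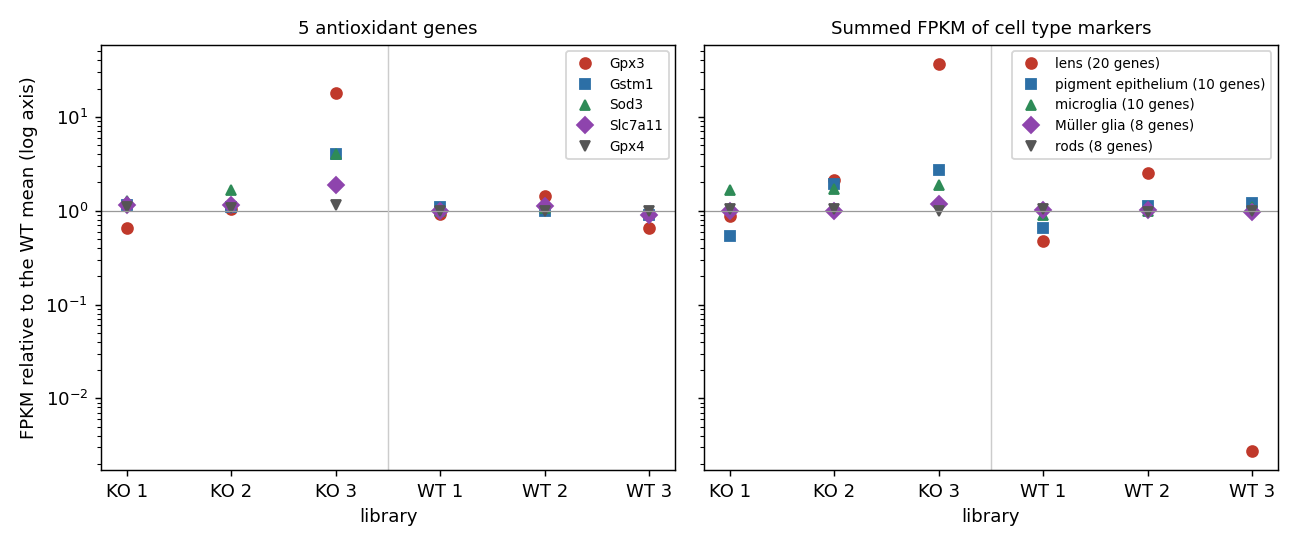
Values in each library relative to the wild-type mean, on a log axis, for 5 antioxidant genes (left) and for the summed FPKM of markers of 5 cell types (right), knockout libraries first. In knockout replicate 3 Gpx3, Gstm1 and Sod3 reach 17.9, 4.04 and 4.005 times the wild-type mean, while Gpx4 stays close to 1 in each library. The lens sum is highest in that library (11210 FPKM before division by the wild-type mean).

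In the peroxiredoxins, 5 of the 6 log2 changes were above 0 and only Prdx6 was free of overlap. Prdx6 (ENSMUSG00000026701.15, chromosome 1, 161240112 to 161251219, minus strand), which also acts on phospholipid peroxides, measured 54.2, 51.6 and 52.5 FPKM in the knockout, against 44.6, 50.7 and 47.2 FPKM in wild type. The genotypes did not overlap, though knockout replicate 2 and wild-type replicate 2 lay close together. Its log2 change was 0.15 (SE 0.06, 95% interval 0.02 to 0.28, limma adjusted p = 0.511) and 0.15 without knockout replicate 3. Prdx2, a cytosolic enzyme and the most abundant of the 6, measured 240.2, 225 and 234 FPKM in the knockout and 229, 219 and 228 FPKM in wild type, which overlap (log2 change 0.05, adjusted p = 0.761). Prdx1, its cytosolic relative, averaged 75.1 ± 4.39 FPKM in the knockout and 70.0 ± 3.35 FPKM in wild type (SD, n = 3 each, adjusted p = 0.640). The mitochondrial Prdx3 had the only log2 change below 0 in the family, at 26.6 ± 0.633 and 28.9 ± 2.44 FPKM in knockout and wild type (log2 change −0.11, adjusted p = 0.652). Prdx4 of the endoplasmic reticulum averaged 11.7 ± 1.1 and 10.4 ± 1.098 FPKM (adjusted p = 0.687), and Prdx5, found in several compartments, 119 ± 11.3 and 112 ± 4.16 FPKM (adjusted p = 0.751), the knockout given first. Summed over the 6 genes the family measured 518 ± 14.03 FPKM in the knockout and 494.5 ± 9.13 FPKM in wild type, and Prdx2 made up 45.0% ± 1.19 and 45.6% ± 0.489 of it. Of the 50-base words of Prdx5, 24.2% also occur in Trmt112, which overlaps it on the opposite strand. For Prdx2, 18.2% occur in transcripts of other genes, and its locus overlaps Rnaseh2a and Junb on the opposite strand.

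Of the glutathione transferases, Gstm1 (ENSMUSG00000058135.12, chromosome 3, 108012255 to 108017973, minus strand), which detoxifies electrophiles, measured 19.9, 18.7 and 69.1 FPKM in knockout replicates 1, 2 and 3, against 18.7, 17.1 and 15.6 FPKM in wild type. Knockout replicate 2 lay just above wild-type replicate 1, and knockout replicate 3 was 4.04 times the wild-type mean. The log2 change was 0.76 (SE 0.43, limma adjusted p = 0.637), 0.17 (SE 0.09, adjusted p = 0.711) without knockout replicate 3, and 0.08 with the lens term. Gstm1 belongs to a cluster of similar genes, and 19.9% of its 50-base words occur in transcripts of other genes, so reads could be split among them. Its neighbour Gstm2 had the same outlying library, at 1.57, 2.06 and 16.2 FPKM in the knockout and 0.772, 1.18 and 1.65 FPKM in wild type. Gstp1, the most abundant of the 3, measured 68.0, 64.6 and 60.3 FPKM in the knockout and 74.9, 63.8 and 57.4 FPKM in wild type (log2 change −0.02, adjusted p = 0.970). Of its 50-base words 51.0% are shared with Gstp2, which was listed at no more than 0.704 FPKM in any library. Gsta4, which clears the lipid peroxidation product hydroxynonenal, averaged 39.3 ± 4.06 FPKM in the knockout and 35.0 ± 5.06 FPKM in wild type (SD, n = 3 each, adjusted p = 0.681).

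Other genes of the same pathways were read from a list of 96, also chosen with earlier results of these data known. It holds partners of NRF2, suppliers of NADPH, further targets, and further genes of glutathione, thioredoxin and selenoprotein synthesis. Of the 96, 82 were tested and 0 were called higher and 0 lower by limma. The calls took in 0.205% of all genes tested as higher and 0.0282% as lower. Unadjusted p-values under 0.05 numbered 10 higher and 2 lower, against 5.19% of all genes higher and 3.81% lower. The log2 change was above 0 for 54 (65.9%, against 49.3% of all genes tested) and below 0 for 28, with a median of 0.04, and 0.06 without knockout replicate 3. The smallest p was that of Txndc12, a thioredoxin-like protein of the endoplasmic reticulum, at 24.3, 26.4 and 25.3 FPKM in the knockout and 21.0, 21.6 and 21.9 FPKM in wild type (log2 change 0.23, adjusted p = 0.284). Next came Idh1, an isocitrate dehydrogenase that yields NADPH, at 34.0 ± 0.975 FPKM in the knockout and 29.4 ± 1.83 FPKM in wild type (SD, n = 3 each, adjusted p = 0.389). The third was Oplah, which returns oxoproline to glutamate in glutathione turnover, at 11 ± 1.115 and 8.83 ± 0.643 FPKM in knockout and wild type (adjusted p = 0.443). All 3 were free of overlap, with the knockout values above. By group, the log2 change was above 0 for 7 of the 8 NADPH suppliers, 12 of the 15 further NRF2 targets, 18 of the 27 further glutathione genes, 9 of the 13 further thioredoxin genes, 6 of the 12 NRF2 partners and 2 of the 7 genes of selenoprotein synthesis. Wholly higher in the knockout were 4 of the NADPH suppliers, 7 of the further targets, 2 of the glutathione genes, 1 of the thioredoxin genes, and 0 of the partners and of the selenoprotein synthesis genes, where 7.83% of all genes tested were wholly higher. Across the 82 genes 1 was wholly lower, against 8.04% of all genes tested. The ferritin genes Fth1 and Ftl1, which store iron, were among the 7 targets wholly higher, at 485 ± 14.9 and 344 ± 23.8 FPKM in the knockout and 450.3 ± 34.0 and 304 ± 22.6 FPKM in wild type (adjusted p = 0.637 for Fth1 and 0.519 for Ftl1). The wholly lower gene was the biliverdin reductase Blvrb, at 5.67 ± 0.369 and 6.71 ± 0.418 FPKM in knockout and wild type (adjusted p = 0.540).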

How the data were processed

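The members and gene lists were chosen with earlier results of these data known. Per the labels' protocols, retinal RNA was extracted with TRIzol and made into libraries with a stranded mRNA kit. Per the submitters' processing notes, TopHat2 2.1.1 and Cuffdiff 2.2.1 were used on mm10; annotation, strand setting and scaling between libraries: not given in the sources used here. For each library the authors deposited FPKM values per gene symbol, which are not counts, so depth is unknown and low values are the least precise. Values were tested as log2(FPKM + 1) with limma 3.58.1 in R 4.3.3 (variance trend, two-sided), for the 14176 genes with a mean of at least 0.5 FPKM, with Benjamini-Hochberg adjustment; the script was tested on simulated data. An exact permutation test of 3 against 3 cannot go below p = 0.1, so limma's p-values are given. Joins and figures used Python 3.11.15 and pandas 2.3.3. Gene positions and transcripts are from GENCODE M21 (GRCm38, the same build as mm10) and promoter windows from RefSeq. Values per library are given for members whose genotypes did not overlap, for the most abundant member of each role group, and for Nfe2l2 and Keap1; other members were singled out after their values were seen. Alternatives were another pseudocount and filters, quantile normalization, library weights, a replicate block, a sex term, a lens term and leaving out each library.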

Additional observations from a re-analysis of the deposited data

How the results depend on the processing

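No member, and no gene of the wider list, was called in any of the 14 alternatives (pseudocount 0.1, no filter, a minimum mean of 2 FPKM, quantile normalization, library weights, replicate block, sex term, lens term, and each library left out). The median log2 change of the members was 0.101 with quantile normalization, 0.044 with the lens term, and 0.077 to 0.148 with 1 library left out, against 0.135 as reported. Of the 33 members, 24 kept the sign of their log2 change throughout. With the lens term it turned to −0.032 for Nqo1, −0.236 for Gss, −0.005 for Txnrd2, −0.569 for Gpx3 and −0.058 for Gpx8. With the sex term it turned to −0.026 for Gss, 0.014 for Txn1, −0.011 for Txnrd2 and 0.048 for Gstp1, and with library weights to −0.057 for Gss and 0.015 for Gstp1. With 1 library left out the range was −0.059 to 0.095 for Keap1, −0.207 to 0.192 for Gss, −0.022 to 0.096 for Gsr, −0.064 to 0.067 for Txn1, −0.058 to 0.241 for Txnrd2, −0.160 to 2.022 for Gpx3, −0.160 to 0.416 for Gpx8 and −0.105 to 0.084 for Gstp1. The cause was not tested. Over all genes, 29 were called higher and 4 lower as reported. The numbers were 13 and 2 with the replicate block, 17 and 2 with the sex term, 5 and 2 with the lens term, and 2 lower with no filter. With 1 library left out they ran from 9 to 24 higher and from 2 to 4 lower. Knockout and wild-type libraries that share a replicate number had correlations of their deviations of 0.072, −0.090 and −0.119. The highest correlation between libraries of unlike number was 0.166, for knockout replicate 2 and wild-type replicate 3. Sex and lens content also differ among the libraries, so these values cannot decide whether the numbers pair them. Unknown depth limits the genes under 5 FPKM most.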

Other observations

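Akr1b3, an aldose reductase gene of the wider list, was listed at 2.94 FPKM in knockout replicate 1, at 0.00136 and 0.00157 FPKM in knockout replicates 2 and 3, and at 0.000751, 0.000885 and 0.00174 FPKM in the wild-type libraries. It was named after its values were seen, and values this far under the rest can be failed estimates in such tables, so no difference is drawn from them. Other genes of the wider list that stood out in knockout replicate 3 were Mgst1, a membrane-bound glutathione transferase, at 3.59, 3.79 and 12.9 FPKM in knockout replicates 1, 2 and 3 against 1.98, 4.03 and 3.97 FPKM in the wild-type libraries, and Ephx1, an epoxide hydrolase, at 4.64, 4.84 and 9.44 FPKM in the knockout against 3.79, 4.25 and 3.91 FPKM in wild type. Both were likewise named after their values were seen.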
